A study of Mus musculus with 4 samples.

Results

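The genes described here are 10 members of the bone morphogenetic protein (BMP) pathway, taken by symbol out of the 55405 genes listed in each of 4 single-cell matrices of mouse embryonic heart ventricle. They are the type I receptors Acvrl1 and Bmpr1a, the type II receptor Bmpr2, the co-receptor Eng, the inhibitory Smads Smad6 and Smad7, the target genes Id1, Id2 and Id3, and the extracellular modulator Bmper. All 10 symbols stood on 1 row each. The KO embryos (2 libraries) were Gata4fl/fl;Rosa26mTmG/+;Cdh5(Pac)-CreER+, and the het embryos (2 libraries) were Gata4fl/+;Rosa26mTmG/+;Cdh5(Pac)-CreER+. Both groups thus carried the tamoxifen-inducible Cre, driven in the endothelium by Cdh5 sequences, and the membrane reporter that Cre switches to green, and neither lacked Cre. Tamoxifen was given at E9.5 and the ventricles were taken at E12.5 (E, embryonic day) and dissociated with collagenase. Whether embryos were pooled for a library, and what a replicate number shares, is not stated, so p-values measure the spread between these libraries, which may be technical. The labels name the 3′ v2 kit in one place and a Next GEM kit in another.

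BMP ligands assemble type I and type II receptors, the type I receptor phosphorylates Smad1, Smad5 and Smad9, and these enter the nucleus with Smad4 to switch on genes such as the Id family. Smad6 and Smad7 are themselves induced by the signal and act back on the receptors and on Smad signalling as inhibitors. In the developing heart the pathway acts in the endocardium, in the cushion mesenchyme that arises from it and in the myocardium, and Acvrl1 with Eng forms the endothelial branch that responds to circulating ligands.

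The matrices held 137890971 to 190207638 UMIs (unique molecular identifiers, counts of captured RNA molecules), and 52719 cells were kept. Cells were clustered without the 10 members and without the other BMP genes tested below, and clusters were called "X-like" from marker genes. Endothelial-like cells numbered 831 and 463 in the KO libraries (1 and 2) and 595 and 783 in the het libraries, and consisted of 1 endocardial-like cluster, led by genes such as Plvap and Npr3, and 1 vascular-like cluster, led by genes such as Fabp4 and Apln. Their summed UMIs ranged from 7562305 in het 1 to 21550587 in het 2. Het 1 stood apart from the other 3 libraries: 16918 of its 22474 cells fell into unnamed clusters, against 869 to 2000 cells in the others. One of these clusters had Emcn, Icam2 and Cldn5 among its leading genes and took 2007 of its 2084 cells from het 1. The vascular-like cluster made up 20.9% and 18.1% of endothelial-like cells in KO 1 and KO 2, against 41.5% and 20.6% in het 1 and het 2, so the members' levels and tests are given for the 2 clusters apart as well. Libraries shared 23 to 103 cell barcodes per pair, at most 0.686% of the smaller library.

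Gata4, the transcription factor gene that was floxed (ENSMUSG00000021944.15, chromosome 14, 63198922 to 63271692, minus strand, GRCm38), stood at 162 and 165 CPM (UMIs of the gene over all UMIs of the class, on the usual CPM scale, with TMM factors) in endothelial-like cells of KO 1 and KO 2, against 89.8 and 84.4 CPM in het 1 and het 2. Its level was higher in both KO libraries (log2 difference 0.91, SE 0.146, adjusted p = 0.439 in edgeR's quasi-likelihood test). The chemistry counts transcripts from their 3′ ends and the position of the loxP sites is not given, so this level may lie outside the deleted part and checks neither genotype nor deletion. EGFP, the green reporter, stood at 2358 and 2903 CPM without TMM in endothelial-like cells of the KO libraries and at 2016 and 3576 CPM in those of the het libraries. In cardiomyocyte-like cells it stood at 69.3 and 35.0 CPM in KO and at 61.5 and 64.2 CPM in het.

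In endothelial-like cells, the cells in which the Cre is driven, 7 of the 10 members stood higher in both KO libraries than in either het library: Acvrl1, Eng, Bmpr1a, Smad6, Smad7, Id1 and Bmper. Of all 15024 genes tested, 13.5% stood that way. The log2 differences of all 10 members were above 0, with a median of 0.60, while the median of all genes was −0.003 and 49.3% of them were above 0. The members were chosen with earlier results of these data known, so these counts and medians describe them and are no test of the pathway. No member passed over all genes in edgeR, where 0% of genes were called and adjusted p went no lower than 0.0686. Before adjustment, 559 of the 15024 genes had p under 0.05, and 7 of the 10 members were among them. Bmper was in both counts of 7, with 26 and 22 UMIs in KO and 2 and 17 UMIs in het. With so few UMIs, its place there carries no weight. DESeq2 called 34 genes (0.226% of those tested), 30 of them higher in KO, and limma-voom called 0. Acvrl1, Smad6, Smad7 and Gata4 were among the genes that DESeq2 called, so the verdict on these 4 depends on the tool.

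Among the receptors, Acvrl1, the endothelial type I receptor (ENSMUSG00000000530.16, chromosome 15, 101128522 to 101145336, plus strand), was furthest apart. It stood at 35.6 and 42.7 CPM in KO 1 and KO 2, against 17.2 and 17.6 CPM in het 1 and het 2. The groups did not overlap, and their means were 39.2 ± 5.03 CPM in KO and 17.4 ± 0.264 CPM in het (SD, n = 2 each; log2 difference 1.17, SE 0.170). The adjusted p was 0.383 in edgeR and 0.00161 in DESeq2, and over 18 alternatives it ranged from 1.84e-05 to 1 while the log2 difference ranged from 0.67 to 1.53. Eng, the co-receptor endoglin (ENSMUSG00000026814.16, chromosome 2, 32646595 to 32682669, plus strand), stood at 833 and 999 CPM in KO, against 599 and 664 CPM in het. Its log2 difference was 0.54 (SE 0.201, adjusted p = 0.99981 in edgeR). Bmpr1a, a type I receptor with a broad range of tissues (ENSMUSG00000021796.15, chromosome 14, 34410734 to 34503341, minus strand), stood at 67.7 and 59.9 CPM in KO, against 52.2 and 44.99 CPM in het (log2 difference 0.40, SE 0.158). Bmpr2, the type II receptor shared by these type I receptors (ENSMUSG00000067336.6, chromosome 1, 59763400 to 59879014, plus strand), stood at 275 and 219 CPM in KO, against 236 and 182 CPM in het. Its groups overlapped, and both libraries numbered 1 were the higher of their group. In the annotation Acvrl1, Bmpr1a and Eng overlap a gene on the other strand (Gm16031, Gm17110 and Fpgs), and Eng and Bmpr2 also overlap smaller genes on their own strand, so reads in the shared stretches are uncertain.

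Both inhibitory Smads stood higher in the KO libraries. Smad6, which acts mainly on BMP signalling (ENSMUSG00000036867.7, chromosome 9, 63953076 to 64022059, minus strand), stood at 138 and 134 CPM in KO, against 76.1 and 57.0 CPM in het. The 2 KO libraries lay close together and well above the het libraries, with means of 136 ± 2.39 CPM in KO and 66.5 ± 13.5 CPM in het (SD, n = 2 each; log2 difference 1.04, SE 0.181, adjusted p = 0.443 in edgeR and 0.00120 in DESeq2). Smad7, which inhibits both the BMP and the TGF-beta branch (ENSMUSG00000025880.11, chromosome 18, 75367529 to 75395935, plus strand), stood at 265 and 275 CPM in KO, against 150 and 163 CPM in het. Its means were 270 ± 7.06 CPM in KO and 156 ± 9.70 CPM in het (log2 difference 0.79, SE 0.159, adjusted p = 0.562 in edgeR and 0.0135 in DESeq2). Neither gene reversed under any of its 18 alternatives, where Smad6 ranged from 0.54 to 1.25 and Smad7 from 0.38 to 0.90 on the log2 scale. Without het 1, the library that stood apart, the log2 differences were 1.15 for Acvrl1, 1.25 for Smad6 and 0.72 for Smad7 (adjusted p = 0.0776, 0.0527 and 0.9996 in edgeR), with 37 genes called in all.

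**Figure D1:**
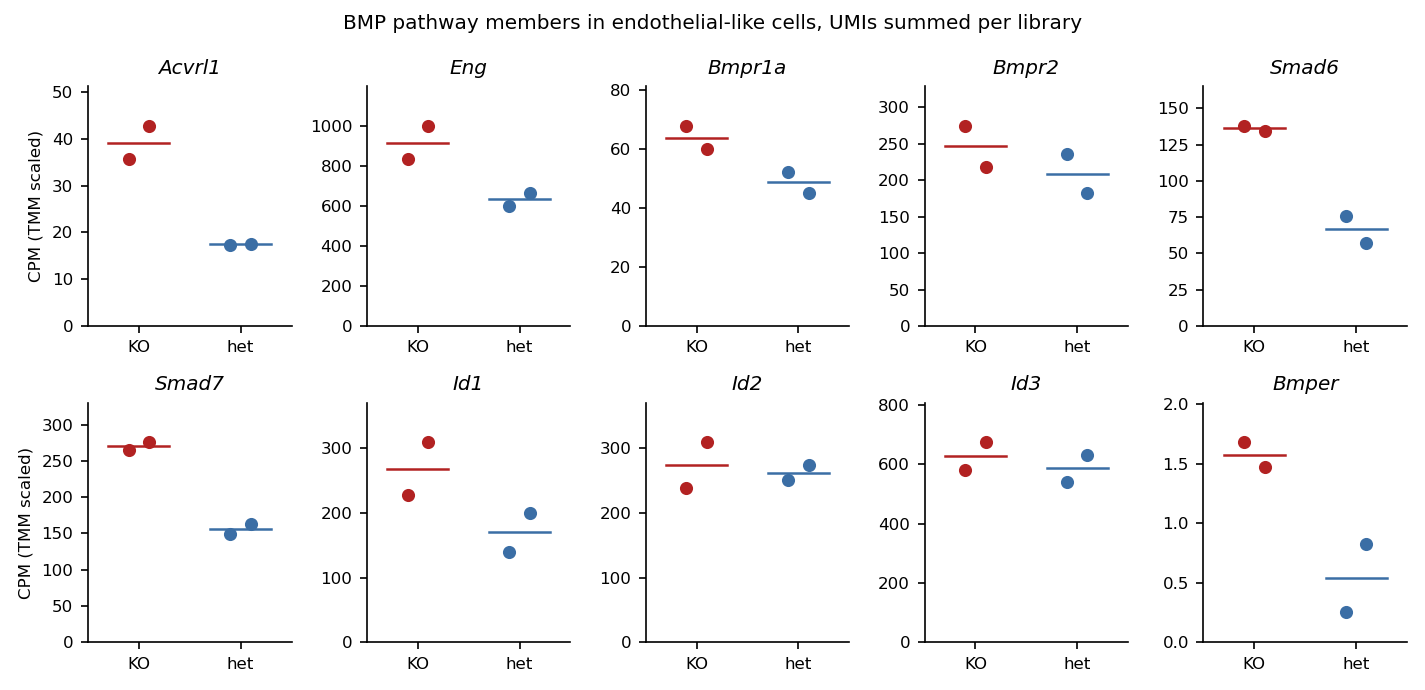
TMM-scaled CPM of the 10 members in endothelial-like cells, with 1 point per library, KO on the left and het on the right of each panel, a line at the mean of each group and vertical axes that start at 0. Smad6 lay at 138 and 134 CPM in KO, against 76.1 and 57.0 CPM in het, while Id2 and Id3 overlapped.

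The 3 Id genes, which encode helix-loop-helix proteins without a DNA-binding region that block other transcription factors, did not stand alike. Id1 (ENSMUSG00000042745.9, chromosome 2, 152736251 to 152737410, plus strand) stood at 228 and 309 CPM in KO, against 140 and 200 CPM in het. The groups did not overlap, though het 2 came close to KO 1 (log2 difference 0.66, SE 0.239, adjusted p = 0.99981 in edgeR, and 0.42 without het 1). Id2 (ENSMUSG00000020644.9, chromosome 12, 25093799 to 25097140, minus strand) stood at 238 and 308 CPM in KO, against 251 and 273 CPM in het. Id3 (ENSMUSG00000007872.3, chromosome 4, 136143497 to 136145755, plus strand) stood at 581 and 674 CPM in KO, against 541 and 631 CPM in het. Both of these overlapped, with log2 differences of 0.06 (SE 0.191) and 0.10 (SE 0.196), and each took the other sign under several alternatives. Bmper, a secreted protein that binds BMPs outside the cell (ENSMUSG00000031963.8, chromosome 9, 23223076 to 23485200, plus strand), was near the limit of detection, with 26 and 22 UMIs in KO and 2 and 17 UMIs in het. These gave 1.68 and 1.47 CPM in KO, against 0.255 and 0.822 CPM in het (log2 difference 1.35, SE 0.558).

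The 2 endothelial clusters were then taken apart. In endocardial-like cells, the lining of the ventricle, 7 members stood higher in both KO libraries (15.3% of all 14279 genes tested did). Acvrl1 stood at 36.9 and 42.0 CPM in KO, against 13.7 and 13.7 CPM in het (log2 difference 1.53, SE 0.177). It just missed the threshold in edgeR (adjusted p = 0.0773), where no gene was called. DESeq2 called it, among 40 genes in all. So did edgeR without the filter on low counts (187 genes) and with a replicate block (456 genes). These 3 fits reuse the same libraries and call more genes than the main fit, so they are no independent support. Over 9 alternatives its log2 difference ranged from 1.43 to 1.61. Smad6 stood at 175 and 156 CPM in KO, against 87.2 and 71.3 CPM in het (log2 difference 1.07, SE 0.177, adjusted p = 0.232 in edgeR and 0.000737 in DESeq2), and passed under 6 of 9 alternatives. Smad7 stood at 283 and 278 CPM in KO, against 142 and 157 CPM in het (log2 difference 0.90, SE 0.170, adjusted p = 0.343 in edgeR and 0.00305 in DESeq2). It was called by these 3 fits as well. Id1 stood at 263 and 332 CPM in KO, against 142 and 209 CPM in het (0.75, SE 0.239). One of the 7 was Bmper, with 21 and 21 UMIs in KO and 1 and 13 UMIs in het. It reached the level of the filter in the KO libraries alone, so its place among the 7 carries no weight.

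In vascular-like cells, 9 members passed the filter on low counts and Bmper did not. There, 4 members stood higher in both KO libraries (14.3% of all 11676 genes did) and 1 lower (13.9% did). Acvrl1 stood at 33.8 and 46.1 CPM in KO, against 23.6 and 25.9 CPM in het (log2 difference 0.67, SE 0.228). Smad7 stood at 234 and 269 CPM in KO, against 161 and 176 CPM in het (0.58, SE 0.189). Smad6 stood at 56.4 and 62.6 CPM in KO, against 54.9 and 26.2 CPM in het, so that het 1 almost reached KO 1 (0.60, SE 0.300, and 0.12 without het 2). Eng was the last of the 4, at 435 and 543 CPM in KO and at 405 and 396 CPM in het. Id2 was the member that stood lower, at 36.0 and 36.1 CPM in KO, against 50.5 and 45.9 CPM in het (−0.41, SE 0.188). No member was called there in edgeR with all 4 libraries and no replicate block. Without het 1 the Smad6 difference was 1.18 (adjusted p = 0.0205 in edgeR).

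A further cluster, led by Wnt4 and Wnt9b, carried endothelial markers but could not be named, since the neuronal marker Stmn2 was among its leading genes. It held 263 and 116 cells in KO and 737 and 411 cells in het. In it, 4 members stood higher in both KO libraries (15.1% of all 13072 genes did). Acvrl1 was furthest apart, at 14.9 and 29.8 CPM in KO and 5.75 and 4.43 CPM in het, with the KO libraries far from each other (log2 difference 2.13, SE 0.383, adjusted p = 0.715 in edgeR). Smad6 stood at 197 and 174 CPM in KO, against 143 and 93.6 CPM in het (0.65, SE 0.229). Bmper stood at 13.1 and 10.6 CPM in KO, against 8.88 and 8.24 CPM in het (0.48, SE 0.252), and Smad7 was the last of the 4. Id2 was the 1 member that stood lower in both KO libraries (15.3% of all genes did), at 216 and 194 CPM in KO and 270 and 238 CPM in het (−0.31, SE 0.168).

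The difference of the KO effect between the 2 endothelial clusters was tested itself, by an interaction term in a fit that blocks on library. The test called 119 of 13486 genes (0.882%) and no member. Acvrl1 came closest (0.86 greater on the log2 scale in endocardial-like cells, SE 0.188, adjusted p = 0.0517 in edgeR), followed by Id1 (0.45, SE 0.110, adjusted p = 0.0824). Of the other members, Bmpr2 had the lowest difference (−0.08, SE 0.109) and Bmpr1a one of 0.55 (SE 0.213). Bmper, with 1 to 5 UMIs per library in vascular-like cells, gave no usable difference (0.97, SE 1.14).

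**Figure D2:**
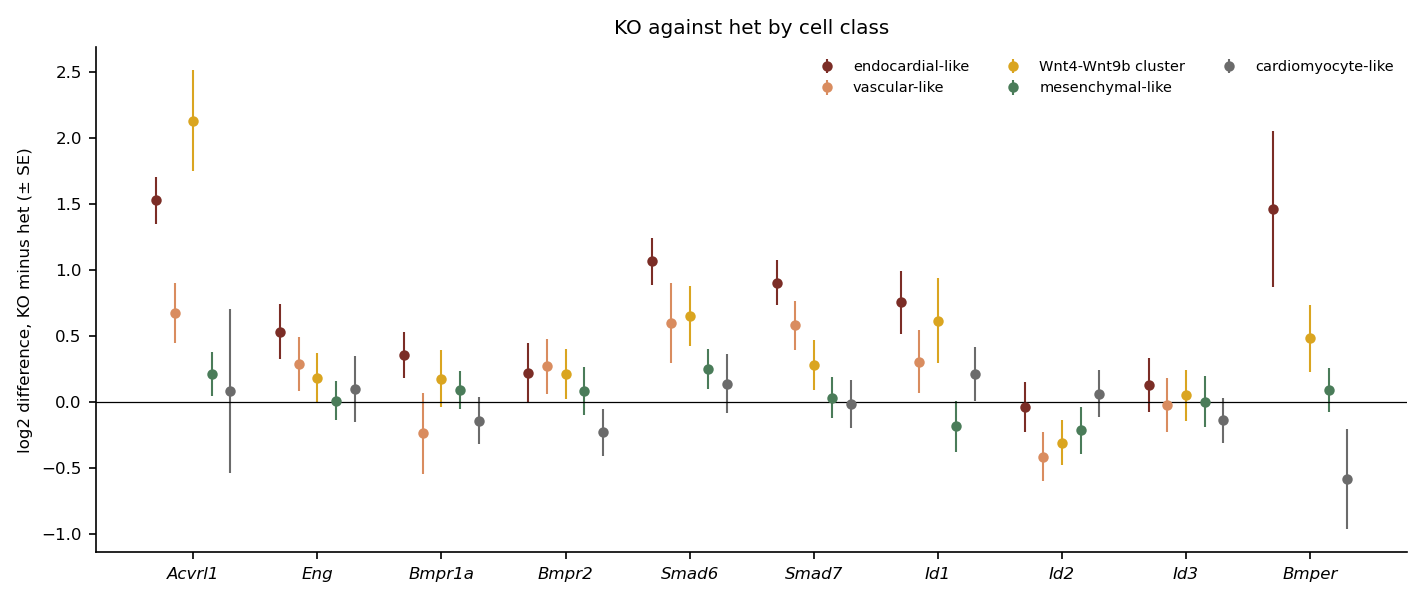
Log2 difference, KO minus het, with its SE for each member in 5 cell sets; Bmper has no value in vascular-like cells. Acvrl1, Smad6, Smad7 and Id1 lay higher in endocardial-like cells than in mesenchymal-like cells, where the members ranged from −0.22 to 0.25.

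Mesenchymal-like cells, the cushion and stromal cells beside the endocardium, showed little of this. All 10 members passed the filter there and 2 of them, Acvrl1 and Smad6, stood higher in both KO libraries (9.61% of all 16251 genes did). Acvrl1 stood at 16.9 and 17.8 CPM in KO and at 16.0 and 14.2 CPM in het. Smad6 stood at 71.8 and 67.2 CPM in KO and at 65.0 and 52.7 CPM in het. Smad7 stood at 170 and 173 CPM in KO and at 153 and 183 CPM in het, and Id1 at 228 and 266 CPM in KO and at 235 and 326 CPM in het. Both overlapped, and Id1 had a log2 difference below 0 (−0.19, SE 0.194).

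The KO effect was significantly greater in endothelial-like than in mesenchymal-like cells for 3 members: Smad6 (0.81, SE 0.111, adjusted p = 0.0430 in edgeR), Smad7 (0.76, SE 0.109, adjusted p = 0.0484) and Id1 (0.84, SE 0.114, adjusted p = 0.0430). The test called 15 of 16699 genes (0.0898%), 14 of them with the greater effect in endothelial-like cells, and Gata4 was among them (0.85, SE 0.119, adjusted p = 0.0430). Acvrl1 had a difference of 0.94 (SE 0.157) and did not pass (adjusted p = 0.0730). Eng had 0.52 (SE 0.143, adjusted p = 0.401), and the remaining members ranged from 0.10 for Id3 to 1.21 for Bmper. Over 6 alternatives the difference for Smad6 ranged from 0.75 to 0.87. Without het 1, the differences were 0.87 for Smad6, 0.83 for Smad7 and 0.83 for Id1. Without KO 2, Smad7, Id1 and Gata4 did not pass, with adjusted p of 0.0946, 0.128 and 0.0832 and differences of 0.75, 0.74 and 0.74.

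The same test against cardiomyocyte-like cells called 10 of 17036 genes (0.0587%) and no member. Smad6 differed by 0.88 (SE 0.204, adjusted p = 0.227 in edgeR), Smad7 by 0.76 (SE 0.216, adjusted p = 0.539) and Acvrl1 by 0.885 (SE 0.5003). Acvrl1 had 11 to 17 UMIs per library in cardiomyocyte-like cells, and its difference was −0.03 without het 1. In cardiomyocyte-like cells themselves the 10 members ranged from −0.59 for Bmper to 0.21 for Id1 on the log2 scale. Bmper was the member that stood lower in both KO libraries there (11.3% of all 16306 genes did), at 0.883 and 0.986 CPM in KO and 1.02 and 1.74 CPM in het.

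**Figure D3:**
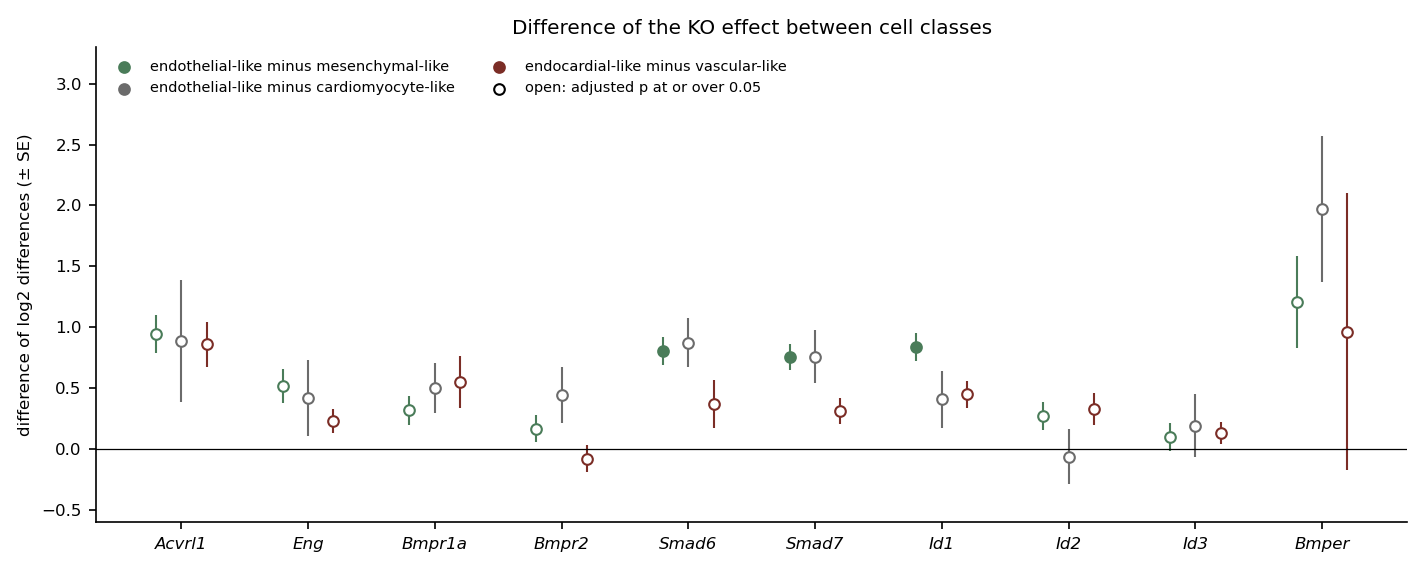
Difference of the log2 KO effect between 2 cell classes, with its SE, for each member and 3 pairs of classes; filled points have an adjusted p under 0.05 in edgeR. Smad6, Smad7 and Id1 were past the threshold for endothelial-like minus mesenchymal-like cells, at 0.81, 0.76 and 0.84.

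In the other classes no member passed in edgeR. In epicardial-like cells Bmper had 8.54 and 10.7 CPM in KO and 5.99 and 7.43 CPM in het (log2 difference 0.47, SE 0.303). There, 2 members stood lower in both KO libraries (11.1% of all 13898 genes did). One was Id3, at 192 and 165 CPM in KO and 262 and 260 CPM in het (log2 difference −0.55, SE 0.191), and the other Smad7, at 58.0 and 58.5 CPM in KO and 66.4 and 72.7 CPM in het. In macrophage-like cells the 9 members that passed the filter ranged from −0.26 to 0.25. In erythroid-like cells 7 of the 9 that passed stood lower in both KO libraries on the TMM scale, against 28.2% of all 12495 genes. The TMM factors there were 1.38 and 1.35 in KO and 0.700 and 0.767 in het, and the picture depends on them. Without scaling Id1 and Id3 still stood lower in both KO libraries, Id3 at 7.51 and 6.21 CPM in KO and 17.6 and 9.75 CPM in het. The other 5 of the 7 overlapped without scaling, such as Smad7 at 2.51 and 1.90 CPM in KO and 2.34 and 2.24 CPM in het.

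Other genes of the pathway were read in endothelial-like cells from lists of ligands, receptors, Smads, modulators, regulators and further targets. The lists were chosen with earlier results of these data known. None of their genes was called in edgeR. Of all 15024 genes tested there, 13.5% stood higher in both KO libraries and 13.1% lower. Bmp6, a BMP ligand gene, was furthest apart among the ligands, at 38.2 and 45.5 CPM in KO and 10.2 and 12.8 CPM in het (log2 difference 1.85, SE 0.192, adjusted p = 0.110). In endocardial-like cells it stood at 50.7 and 56.0 CPM in KO, against 12.1 and 15.8 CPM in het (1.91, SE 0.197, adjusted p = 0.0610 in edgeR), and in vascular-like cells at 10.6 and 9.63 CPM in KO, against 6.54 and 6.22 CPM in het (0.68, SE 0.308). Bmp4 stood at 6.97 and 8.36 CPM in KO, against 3.83 and 4.55 CPM in het. Of the 7 ligand genes, 4 passed the filter, 2 stood higher in both KO libraries, and Bmp2 and Bmp7 overlapped. Bmp10 and Gdf2, which encode the ligands of Acvrl1, did not pass the filter in endothelial-like cells.

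Of the 4 receptor and common Smads, which carry the signal, 1 stood higher and 1 lower in both KO libraries (13.5% and 13.1% of all genes did). Smad9 stood at 5.04 and 3.88 CPM in KO, against 1.15 and 2.08 CPM in het (log2 difference 1.38, SE 0.374, adjusted p = 0.876), from 9 UMIs in het 1. Smad1 and Smad5 overlapped, with log2 differences of 0.04 and −0.08, and Smad4 stood lower, at −0.13. Of the 6 other receptors that passed, 3 stood higher in both KO libraries, Tgfbr3 among them at 178 and 170 CPM in KO and 147 and 110 CPM in het. Bambi, which encodes a pseudoreceptor that dampens the signal, stood at 59.8 and 58.9 CPM in KO, against 44.3 and 39.6 CPM in het (0.50, SE 0.147). It was the 1 extracellular or membrane modulator of 6 that did not overlap. Among 8 intracellular regulators, 1 did not overlap, Tob1, which was lower in KO (13.1% of all genes stood that way).

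Of the 10 further target genes that passed, 5 stood higher and 1 lower in both KO libraries (13.5% and 13.1% of all genes did). Gja5, the gap junction gene of arterial endothelium and conducting cells, stood at 15.6 and 27.0 CPM in KO, against 3.06 and 5.61 CPM in het (log2 difference 2.22, SE 0.361, adjusted p = 0.443 in edgeR). Hey1, a gene that also answers to Notch, stood at 29.5 and 32.6 CPM in KO, against 11.6 and 15.6 CPM in het (1.17, SE 0.195, adjusted p = 0.443). Hey2 stood at 13.5 and 8.50 CPM in KO, against 6.77 and 6.43 CPM in het. The list medians, on the log2 scale, were 0.29 for ligands, 0.09 for other receptors, −0.02 for receptor and common Smads, 0.18 for extracellular modulators, 0.01 for intracellular regulators and 0.23 for further targets.

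Some other transcripts moved with the groups in endothelial-like cells. Immediate-early and dissociation genes summed to 2961 and 3174 CPM without TMM in KO, against 2420 and 2556 CPM in het. Of the 16 genes, 14 were above 0 and 8 stood higher in both KO libraries (13.5% of all genes did). Each of the 16 had UMIs in all 4 libraries, as did each of the 16 cardiomyocyte and 12 mesenchymal markers. Cardiomyocyte markers summed to 2432 and 1023 CPM in KO and to 3543 and 2124 CPM in het, and mesenchymal markers to 3758.5 and 3005.5 CPM in KO and 2986 and 2186 CPM in het. G2/M genes of the cell cycle summed to 1784 and 1284 CPM in KO and to 1250 and 1426 CPM in het, with all 10 above 0 and none apart. In endocardial-like cells the G2/M sums were 1602 and 1206 CPM in KO, against 969 and 1144 CPM in het. There, 7 of the 10 genes stood higher in both KO libraries (15.3% of all genes did), with a median log2 difference of 0.39. In vascular-like cells 2 of the 10 were above 0. The immediate-early sums were apart in both clusters, at 3048 and 3224 CPM in KO against 2436 and 2537 CPM in het in endocardial-like cells, and at 2760 and 2996 CPM in KO against 2391 and 2597 CPM in het in vascular-like cells. Globin genes summed to 21529 and 3828 CPM in KO and to 17420 and 10966 CPM in het. The part of each of these in the members' differences was not tested. In sums of this kind, more cells with a transcript and more RNA per cell cannot be told apart without counts per cell.

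Shares of cells were also compared after each cell had been thinned to 2000 UMIs. For a gene with few UMIs per cell such a share largely follows the mean level. It thus cannot tell more cells with a transcript from more RNA per cell. A UMI of Acvrl1 was found in 7.62% and 8.77% of endothelial-like cells in KO, against 3.58% and 3.91% in het. For Smad6 the shares were 24.7% and 21.3% in KO, against 14.2% and 10.7% in het. For Eng they were 79.7% and 81.6% in KO, against 66.9% and 71.2% in het. Within endocardial-like cells the Smad6 shares were 26.8% and 25.4% in KO, against 16.3% and 12.7% in het. Within vascular-like cells they overlapped, with 9.76% in KO 2 and 10.3% in het 1. In all, 7 to 44 endothelial-like cells per library were too shallow and were left out. In erythroid-like cells Smad6 stood at 1.01 to 2.51 CPM without TMM. It was found there in 0.545% and 0.126% of cells in KO and 0.609% and 0.317% in het. Median depths there were 15605 and 28450 UMIs in KO and 12164 and 18932 UMIs in het. Unthinned, the Smad6 shares in endothelial-like cells were 68.0% and 79.3% in KO, against 42.7% and 56.1% in het, at median depths of 13773 and 27029 UMIs in KO and 7681 and 20255 UMIs in het.

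Across cell sets, levels were compared for each gene as CPM without TMM, as a description over the 4 libraries. Eng, Bmpr2 and Id2 had their highest mean in endocardial-like cells and Acvrl1 in vascular-like cells, while Smad6, Smad7, Id1 and Id3 had theirs in the unnamed Wnt4 and Wnt9b cluster. With TMM scaling over all sets, Id3 was highest in mesenchymal-like cells. No member kept its whole order of 8 sets under both scalings (0 of 10), the changes lying between neighbours or among the sets with low levels, such as Eng at a mean of 20.0 CPM in erythroid-like cells on the scaled and 4.99 CPM on the unscaled values. The ranges of Eng were separate at the upper end: 740 to 1077 CPM in endocardial-like cells, 548 to 697 CPM in the Wnt4 and Wnt9b cluster, 385 to 525 CPM in vascular-like cells and 113 to 134 CPM in mesenchymal-like cells, with no overlap between neighbours. Macrophage-like cells followed at 10.1 to 21.7 CPM, and epicardial-like, cardiomyocyte-like and erythroid-like cells at 3.50 to 9.01 CPM, whose ranges overlapped. Acvrl1 was not ordered so: vascular-like (23.8 to 44.6 CPM), endocardial-like (13.1 to 39.9 CPM), mesenchymal-like (13.8 to 17.5 CPM) and macrophage-like cells (13.1 to 15.2 CPM) overlapped with their neighbours. Bmpr2 was broad, and its neighbours overlapped all the way down to cardiomyocyte-like cells at 36.6 to 57.4 CPM, above 2.09 to 3.83 CPM in erythroid-like cells.

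Bmpr1a had its highest level in epicardial-like cells, at 132 to 189 CPM, above the 73.9 to 116 CPM of the Wnt4 and Wnt9b cluster. It differed within the endothelium, at 57.6 to 94.7 CPM in endocardial-like cells and 10.2 to 19.4 CPM in vascular-like cells. Id2 did so too, at 340 to 377 CPM in endocardial-like cells and 34.9 to 50.9 CPM in vascular-like cells. Smad6 stood at 90.4 to 205 CPM in the Wnt4 and Wnt9b cluster and 68.1 to 181 CPM in endocardial-like cells, and both overlapped. Smad7 was spread over the endothelial clusters, the Wnt4 and Wnt9b cluster and the mesenchyme, with 156 to 178 CPM in mesenchymal-like cells, and fell off to 56.1 to 70.4 CPM in epicardial-like cells.

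Id1 overlapped between the Wnt4 and Wnt9b cluster (199 to 485 CPM), mesenchymal-like (236 to 318 CPM), endocardial-like (150 to 315 CPM), vascular-like (136 to 227 CPM) and epicardial-like cells (132 to 176 CPM). Id3 was at 697 to 833 CPM in the Wnt4 and Wnt9b cluster, 681 to 823 CPM in mesenchymal-like cells and 599 to 678 CPM in endocardial-like cells, and the first 2 overlapped. Without TMM, Bmper alone among the members was highest in mesenchymal-like cells, at 29.9 to 40.2 CPM. It was lowest in macrophage-like cells, at 0.158 to 0.266 CPM. In macrophage-like cells Id1 and Id3 were spread by library number, Id1 at 19.5 and 46.1 CPM in KO 1 and KO 2 and at 15.9 and 57.0 CPM in het 1 and het 2.

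**Figure D4:**
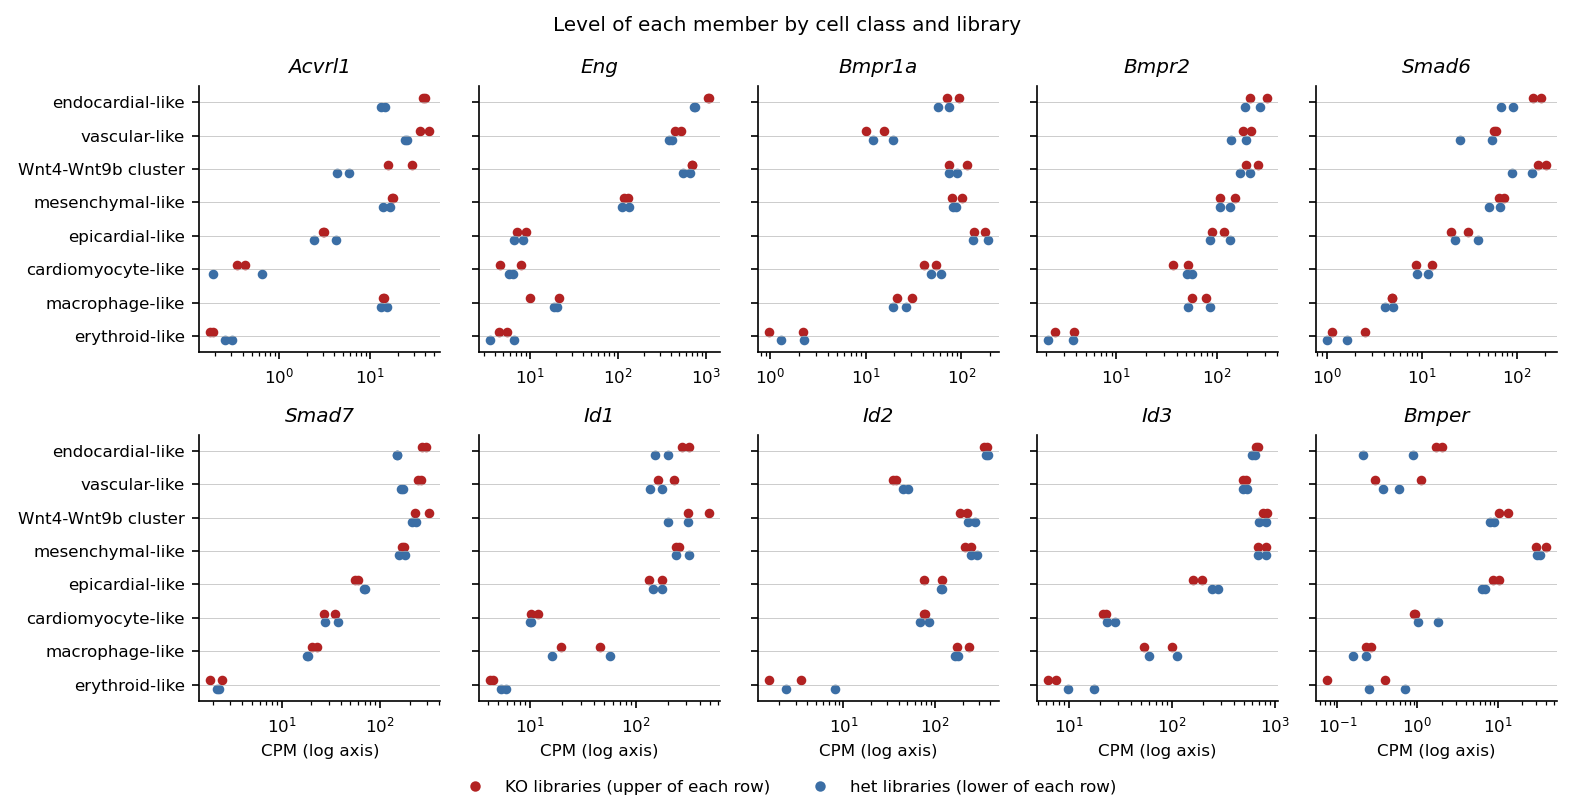
CPM of each member on a log axis by cell set, with 1 point per library, KO libraries above and het libraries below the line of each row. Eng lay between 385 and 1077 CPM in endocardial-like and vascular-like cells and the unnamed Wnt4 and Wnt9b cluster, and at 3.50 to 21.7 CPM in epicardial-like, cardiomyocyte-like, macrophage-like and erythroid-like cells.

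The genes whose levels followed each member most closely were taken from the 32 sums of 8 cell sets and 4 libraries, as Pearson's r of log2(CPM + 1) across sets, which share libraries and depth and are not independent. Eng was most like Cd34 (r = 0.98), Flt1 and Adcy4, of which the first 2 are vascular surface receptors or markers. Acvrl1 was most like Cd38 (0.94), Cnrip1 and Pxdc1, Bmpr2 like Smurf2 (0.99), Ndst1 and Map4k4, and Bmpr1a like Bcl9l (0.97), Zfp945 and Cpq. Smad6 was most like Heg1 (0.97), Adgra2 and Samd5, and Smad7 like Erf (0.975), L3mbtl3 and Vim. Id1 and Id3 were each the other's closest gene (0.98). Id1 was followed by Pdia5 and Rai14, Id3 by Emilin1 and Slc44a2, and Id2 was most like Ankrd44 (0.94), Dap and Wls. Bmper was most like Col6a1 (0.95), Twist1 and Foxp2, where Col6a1 and Twist1 are genes of mesenchyme.

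Promoter sequences were at hand for 7 of the 10 members (RefSeq, GRCm38.p6), and not for Acvrl1, Smad7 and Id1. Of the 7, 4 are shown, for 2 members that stood apart in endothelial-like cells (Smad6, Eng) and 2 that overlapped (Id2, Id3). Each is the run of 250 bases before the start given in its promoter entry, 5′ to 3′ on the gene's strand: chr9:64022060-64022309, minus strand, for Smad6, chr2:32646345-32646594, plus strand, for Eng, chr12:25096093-25096342, minus strand, for Id2 and chr4:136143572-136143821, plus strand, for Id3. The stretches of Id2 and Id3 lie inside the gene spans given above, which come from another annotation, so other starts of these genes are not covered. Capitals mark GGCGCC, an element found in promoters that answer to BMP, and GTCT or its reverse complement AGAC, the Smad box.
Smad6: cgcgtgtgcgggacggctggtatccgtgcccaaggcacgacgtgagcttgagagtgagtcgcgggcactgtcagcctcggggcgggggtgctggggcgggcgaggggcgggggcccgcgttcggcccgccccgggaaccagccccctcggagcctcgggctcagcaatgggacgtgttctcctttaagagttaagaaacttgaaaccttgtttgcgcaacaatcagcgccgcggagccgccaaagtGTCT
Eng: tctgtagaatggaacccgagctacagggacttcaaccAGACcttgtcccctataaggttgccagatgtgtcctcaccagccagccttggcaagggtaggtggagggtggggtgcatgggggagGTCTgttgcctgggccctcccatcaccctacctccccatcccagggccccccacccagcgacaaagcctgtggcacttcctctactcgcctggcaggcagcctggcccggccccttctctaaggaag
Id2: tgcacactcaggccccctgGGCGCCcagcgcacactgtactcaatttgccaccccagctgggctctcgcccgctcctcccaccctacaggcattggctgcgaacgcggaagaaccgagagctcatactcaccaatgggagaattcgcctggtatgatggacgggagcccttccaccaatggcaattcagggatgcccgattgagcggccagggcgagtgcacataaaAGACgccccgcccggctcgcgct
Id3: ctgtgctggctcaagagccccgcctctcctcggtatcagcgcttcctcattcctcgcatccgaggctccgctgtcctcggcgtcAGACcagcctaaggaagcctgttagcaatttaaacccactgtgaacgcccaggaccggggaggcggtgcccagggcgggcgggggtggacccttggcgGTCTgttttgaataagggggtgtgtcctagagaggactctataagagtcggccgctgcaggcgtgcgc
GGCGCC, sought on both strands and unable by its letters to overlap with GTCT, was found in Id2 and not in Smad6, Eng or Id3, and 9.59% of all 32851 promoters of that length hold it. GTCT or AGAC was found in all 4, and 82.9% of all promoters hold it. AGATAA and TGATAA, 2 forms of the GATA element, were sought on both strands and found in none of the 4. They stand in 9.99% and 7.94% of all promoters. The median GC content of all promoters was 52.4%, while the 4 shown held 62.4% (Eng) to 66.8% (Smad6). The shares over all promoters are thus not matched for GC content, on which the frequency of such motifs depends. Bmpr1a and Bmpr2 (78.8% and 64% GC) held GGCGCC as well, and Bmper did not. The stretches of Bmpr1a and Bmpr2 also lie inside the gene spans given above. The start in the Bmpr2 entry matched 0 of its 3 annotated transcripts, so its GGCGCC may not lie before a start in use.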

How the data were processed

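Single-cell 3′ RNA libraries of dissociated ventricles (2 KO, 2 het) were deposited by the authors as matrices of UMI counts per gene and cell barcode, made with Cell Ranger 6.0.1 per the file headers. The submitters' processing notes name mm10, Cell Ranger and Seurat without saying how each was used. The deposited counts were not normalized. Barcodes with at least 500 genes and under 20% mitochondrial UMIs were kept, and doublets were removed with Scrublet, at 0.323 in KO 2 and het 1, where the automatic threshold failed (93 to 608 cells per library removed). Cells were clustered with scanpy 1.11.5 and igraph 0.11.9 (2000 variable genes, 30 components, 20 neighbours, Leiden resolution 1), which gave 41 clusters, of which 17 were named from markers. The members and all gene lists were chosen with earlier results of these data known.

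UMIs were summed per library and class and tested with edgeR 4.0.16 (quasi-likelihood, TMM scaling, filterByExpr with a minimum count of 10 and a total of 15, Benjamini-Hochberg over all genes, threshold 0.05, 2 libraries against 2). The SE was the log2 difference divided by the root of F. DESeq2 1.42.0, limma 3.58.1 (voom), other scalings, no filter, a replicate block and each library left out in turn were alternatives, and scripts were tested on simulated data. An exact permutation test of 2 against 2 cannot go below p = 0.333 and was not used. Besides the members and Gata4, the named genes are among the 4 of lowest unadjusted p in each pathway list and the 3 closest to each member, except Bmp10, Gdf2 and the cluster markers. Library totals were 171252072 and 137890971 UMIs in KO 1 and KO 2 and 156491597 and 190207638 UMIs in het 1 and het 2, and UMI counts carry counting error only as their limit.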

Additional observations from a re-analysis of the deposited data

Results flagged for a closer look

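For 3 members the KO effect differed between endothelial-like and mesenchymal-like cells by a test of the difference itself, in edgeR with library as a block. The effect, KO minus het on the log2 scale, was greater in endothelial-like cells by 0.81 for Smad6 (adjusted p = 0.0430), by 0.76 for Smad7 (adjusted p = 0.0484) and by 0.84 for Id1 (adjusted p = 0.0430). Gata4, the floxed gene, differed by 0.85 (adjusted p = 0.0430). In all 4, both KO libraries stood above both het libraries in endothelial-like cells and the groups overlapped in mesenchymal-like cells, except for Smad6, which stood higher in both KO libraries there as well. Without KO 2 the values for Smad7, Id1 and Gata4 did not pass.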

How the results depend on the processing

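Over all genes, edgeR called 0 genes in each of the 9 cell sets, and 10, 15 and 119 for the differences of effect between endothelial-like and cardiomyocyte-like, endothelial-like and mesenchymal-like, and endocardial-like and vascular-like cells. DESeq2 called 34 genes in endothelial-like, 40 in endocardial-like, 5 in vascular-like, 30 in the Wnt4 and Wnt9b cluster, 3 in epicardial-like and 424 in erythroid-like cells. Without scaling factors there were 1 in endothelial-like, 4 in endocardial-like and 4659 in erythroid-like cells, and 0, 25 and 129 for the 3 differences. Without the filter on low counts there were 180, 187, 135, 265, 30, 30, 20, 765 and 88 in endothelial-like, endocardial-like, vascular-like, Wnt4 and Wnt9b, mesenchymal-like, cardiomyocyte-like, epicardial-like, erythroid-like and macrophage-like cells, and 60, 238 and 464 for the differences. Thinning to 2000 UMIs gave 6 in endothelial-like cells. The cause of these changes was not tested.

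With 1 library left out, the lone library is assumed to vary like the others. Counts then ranged from 17 to 195 in endothelial-like, 99 to 141 in endocardial-like, 75 to 161 in vascular-like, 0 to 332 in Wnt4 and Wnt9b, 32 to 88 in mesenchymal-like, 1 to 62 in cardiomyocyte-like, 15 to 67 in epicardial-like, 5 to 3393 in erythroid-like and 7 to 99 in macrophage-like cells, and from 0 to 32, 37 to 131 and 78 to 324 for the differences.

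The labels do not say what a replicate number shares, and with 2 pairs the numbers were not taken as pairs, though same-numbered libraries deviated together (correlations 0.358 to 0.524). With the replicate block, edgeR called 229, 456, 208, 0, 134, 26, 3, 3318 and 2 genes in the 9 sets in the order above. In endothelial-like cells it called Acvrl1 (adjusted p = 0.00438), Eng (0.0150), Smad6 (0.00466), Smad7 (0.00296) and Id1 (0.00510). It called the same 5 in endocardial-like cells, and Acvrl1 (0.0353) and Smad7 (0.00329) in vascular-like cells.

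Values under alternatives were counted for the members and Gata4 together. Of these, 584 kept their direction and side of the threshold, 64 came to pass it, 3 ceased to and 30 changed sign. The changes of sign were mostly in Id2 and Id3, near 0. In endothelial-like cells, Id2 was −0.039 in the endocardial-like cluster alone, −0.41 in the vascular-like cluster alone, −0.20 in cells chosen by marker UMIs and −0.15 after thinning. Id3 was −0.022 in the vascular-like cluster alone, −0.055 in cells chosen by marker UMIs and −0.063 after thinning, and Bmpr1a −0.24 in the vascular-like cluster alone. With a library left out, Id2 ranged from −0.14 to 0.24 and Id3 from −0.014 to 0.23 there, Bmpr2 from −0.0096 to 0.41, Id2 from −0.17 to 0.075 and Id3 from −0.00038 to 0.25 in endocardial-like cells, and Bmpr1a from −0.58 to 0.080, Id1 from −0.033 to 0.59 and Id3 from −0.13 to 0.091 in vascular-like cells. In the Wnt4 and Wnt9b cluster Bmpr1a ranged from −0.13 to 0.42 and Id3 from −0.074 to 0.21. For endothelial-like minus cardiomyocyte-like cells Acvrl1 ranged from −0.032 to 1.86, Eng from −0.020 to 0.90, Id2 from −0.18 to 0.066 and Id3 from −0.084 to 0.47, and Id2 was 0.054 without scaling. For endocardial-like minus vascular-like cells Bmpr2 ranged from −0.23 to 0.11. The vascular-like cluster alone and the tests in the Wnt4 and Wnt9b cluster were chosen after seeing the data. Depth limits Bmper most, at 2 UMIs in endothelial-like cells of het 1.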
